A study of Mus musculus with 2 samples.

Results

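The nuclear genes for subunits of the mitochondrial respiratory chain and the ATP synthase were examined in regenerating muscle of mice labelled Mef2a knockout and wild type. They were taken by gene symbol: Ndufa, Ndufb, Ndufc, Ndufs and Ndufv genes without the Ndufaf assembly factors for complex I, Sdha to Sdhd for complex II, Cyc1 and the Uqcr genes for complex III, the Cox4i, Cox5, Cox6, Cox7 and Cox8 genes for complex IV, and the Atp5 genes for complex V. A gene was included when a probe set was annotated to it alone, and the probe set with the highest mean stood for the gene. This gave 83 of the 19938 genes of the array, represented by 108 probe sets. The labelled knockout group was 1 pool of RNA from 5 mice of genotype Mef2a -/-, and the wild type group 1 pool from 5 mice of genotype Mef2a +/+, both of 129Sv/C57BL6 strain, both sexes and 2 to 4 months of age. In each mouse the right tibialis anterior, a fast muscle of the shin, had received 50 µl of 10 µM cardiotoxin, a peptide of snake venom that lyses muscle fibres, and it was collected 7 days later, when new fibres have formed. Each pool was hybridised to 1 array, so no value below has a replicate error, no test could be made, and variation from mouse to mouse or from array to array is unknown.

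The respiratory chain passes electrons from NADH (complex I) and succinate (complex II) through coenzyme Q, complex III and cytochrome c to oxygen at complex IV, and the proton gradient built on the way drives the ATP synthase, complex V. Most subunits are encoded in the nucleus and a small core in mitochondrial DNA. Complex IV is particular in having tissue isoforms: striated muscle replaces the ubiquitous subunits 6A, 7A and 8 by the products of Cox6a2, Cox7a1 and Cox8b as its fibres mature. MEF2A, encoded by Mef2a, is a transcription factor of muscle genes.

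Values are log2 expression values, and each difference is the labelled knockout value minus the wild type value on that scale. The arrays ran from 0.13 to 13.17 in the labelled knockout pool and from 0.14 to 13.08 in the wild type pool. Mef2a itself read 9.06 in the labelled knockout pool and 8.92 in the wild type pool. Its probe set was thus not lower in the labelled knockout pool, and since neither the deleted part nor the place of the probes is stated in the labels or files, it does not check the labels. All directions below rest on the labels. Genes were called measurable if either pool reached 4.40, the median of the whole table, which left 11787 genes. Of the 83 subunit genes 80 were measurable, each in both pools. The other 3 are the testis isoforms Cox6b2 (3.80 in the labelled knockout pool and 4.08 in the wild type pool), Cox8c (3.31 and 3.49 in the same order) and Cox7b2 (1.79 and 1.55). The tissue label held for its defining genes: 18 of 18 genes of a list of fast fibre and general skeletal fibre genes were measurable. They read 8.78 to 12.52 in the labelled knockout pool and 9.40 to 12.56 in the wild type pool.

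Subunit genes read slightly lower in the labelled knockout pool across all 5 complexes. Of the 80 measurable genes 73 were lower and 7 higher, while 44.5% of all measurable genes were lower and 53.3% higher. The median difference was -0.23, a 1.17-fold lower level, against a median of 0.03 over all measurable genes. Over all 83 genes, 75 were lower and the median was -0.23. By a limit of 1.2-fold, 30 subunit genes (37.5%) were lower and 1 was higher, against 14.2% and 21.5% of all measurable genes. At limits of 1.1-fold and 1.3-fold, 57 and 12 of the 80 were lower, against 26.9% and 7.33% of all measurable genes. By a limit of 1.5-fold none was lower or higher on the probe set used for the gene, against 1.9% and 6.45%. Single differences were small: the robust SD of the difference was 0.28 over all measurable genes, which may include true differences, and 0.13 over the subunit genes. The subunit genes thus lay in a narrow band on the lower side, and most single differences were smaller than the scatter over all genes. These genes are regulated together and do not count as replicates.

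**Figure D1:**
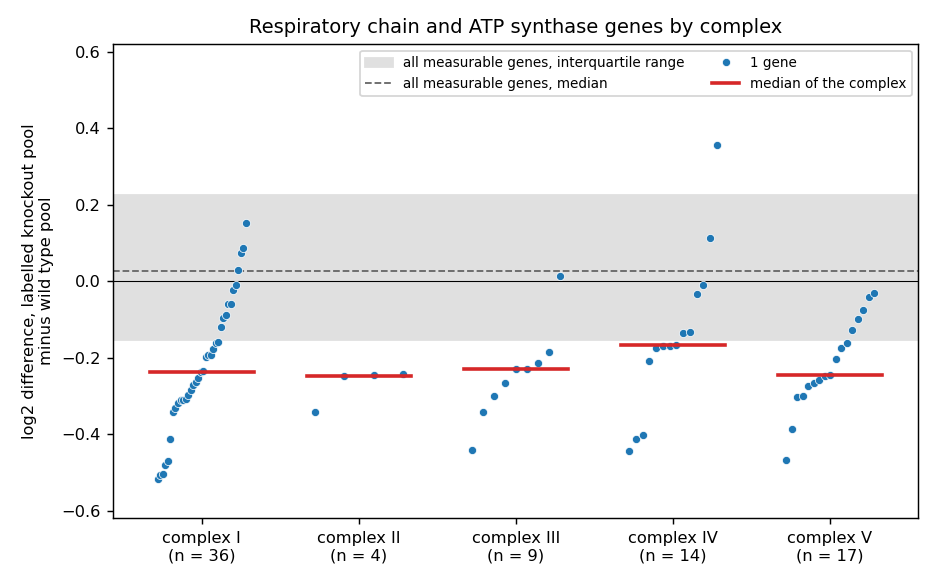
Each point is the log2 difference, labelled knockout pool minus wild type pool, of 1 measurable subunit gene, ordered by size within its complex on the x axis. Red bars are medians of the complexes, the dashed line is the median of all 11787 measurable genes (0.03) and the grey band is their interquartile range (-0.15 to 0.23). The medians of complexes I, II, III and V lie between -0.25 and -0.23, and that of complex IV is -0.17, with Cox6a1 as its highest point at 0.36.

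The complexes differed little in their medians. The median difference was -0.24 for complex I (36 genes, 32 lower), -0.25 for complex II (4 genes, 4 lower), -0.23 for complex III (9 genes, 8 lower), -0.17 for complex IV (14 genes, 12 lower) and -0.25 for complex V (17 genes, 17 lower). The limit of 1.2-fold was passed on the lower side by 16, 1, 4, 3 and 6 genes in that order of complexes. These are 44.4%, 25%, 44.4%, 21.4% and 35.3% of their genes, against 14.2% of all measurable genes. Of all measurable genes, 44.5% were lower by any amount. With 1 array per pool it cannot be said whether the smaller median of complex IV differs from the others.

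Complex I, the NADH dehydrogenase, has a matrix arm that takes electrons from NADH and a membrane arm that pumps protons. Its lowest genes were accessory subunits. Ndufb10, of the membrane arm, read 5.32 in the labelled knockout pool and 5.84 in the wild type pool, a 1.43-fold lower level and the lowest difference of the 80 measurable genes (-0.52). Ndufa11, also of the membrane arm, read 7.69 in the labelled knockout pool and 8.20 in the wild type pool, a difference of -0.51. Ndufa8, on the intermembrane face, read 8.41 in the labelled knockout pool and 8.91 in the wild type pool, a difference of -0.50. Ndufa2, of the tip of the matrix arm, read 7.46 in the labelled knockout pool and 7.94 in the wild type pool, a difference of -0.48. Only 2.96% to 3.83% of all measurable genes had a difference as low as these 4. Ndufa13, also known as GRIM-19, followed at -0.47.

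The catalytic core of complex I is carried in the nucleus by the genes that hold the flavin and the iron-sulfur clusters. All 6 measured core genes were lower, with a median of -0.30, and 4 (66.7%) by at least 1.2-fold, against 14.2% of all measurable genes. Ndufv1, which binds NADH and the flavin, read 8.95 in the labelled knockout pool and 9.37 in the wild type pool, a difference of -0.41. Ndufv2 and Ndufs8, both iron-sulfur subunits, differed by -0.31 each and Ndufs3 by -0.28, while Ndufs7 (-0.19) and Ndufs1 (-0.16) lay within 1.2-fold. Among 28 accessory genes 25 were lower, with a median of -0.22 and a range of -0.52 to 0.15. By position, the 18 membrane arm genes had a median of -0.26 and 9 (50%) past 1.2-fold on the lower side. The 15 matrix arm genes had a median of -0.16 and 5 (33.3%) past 1.2-fold on that side. Ndufab1, the acyl carrier protein that sits in both arms, differed by -0.32.

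The genes at the other end of complex I were level or slightly higher. Ndufb3, of the membrane arm, read 5.72 in the labelled knockout pool and 5.57 in the wild type pool, the highest difference of the complex at 0.15. Ndufa4l2, a hypoxia-induced relative of Ndufa4, is counted here by its symbol but is not an established subunit of complex I, and it read 5.73 in the labelled knockout pool and 5.64 in the wild type pool (0.09). Ndufs6 (0.07) and Ndufv3 (0.03, or -0.03 with a trend on expression level removed), both of the matrix arm, were within the scatter. Ndufa4, which bears a complex I symbol but is found in complex IV, differed by -0.27, and counting it there left the medians at -0.23 for complex I and -0.17 for complex IV.

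Complex II, succinate dehydrogenase, also serves in the citric acid cycle and is encoded wholly in the nucleus. Its 4 genes lay close together. Sdhb, the iron-sulfur subunit, read 8.66 in the labelled knockout pool and 9.01 in the wild type pool, a 1.27-fold lower level. Sdha, the flavoprotein, read 9.55 in the labelled knockout pool and 9.80 in the wild type pool, a difference of -0.25. The membrane anchors Sdhc and Sdhd read 9.36 and 8.99 in the labelled knockout pool, against 9.60 and 9.23 in the wild type pool, differences of -0.25 and -0.24. Sdhb alone passed 1.2-fold.

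Complex III passes electrons from coenzyme Q to cytochrome c. Its redox subunits Cyc1 (cytochrome c1) and Uqcrfs1 (the Rieske iron-sulfur protein) read 9.79 and 7.79 in the labelled knockout pool, against 10.02 and 8.00 in the wild type pool, differences of -0.23 and -0.21. The core proteins Uqcrc1 and Uqcrc2, which form the matrix side, read 10.44 and 10.41 in the labelled knockout pool, against 10.74 and 10.75 in the wild type pool, differences of -0.30 and -0.34. Both core proteins passed 1.2-fold on the lower side, and neither redox subunit did. Among the small subunits, Uqcr11 read 7.38 in the labelled knockout pool and 7.82 in the wild type pool, the lowest difference of the complex at -0.44. Its other probe set differed by -0.60. Uqcr10 differed by -0.27 (7.48 in the labelled knockout pool and 7.75 in the wild type pool), Uqcrq by -0.23 (7.90 and 8.13 in the same order) and Uqcrh, the hinge protein, by -0.19 (9.11 and 9.30). Uqcrb, whose product lies next to the coenzyme Q site, was the exception, at 9.64 in the labelled knockout pool and 9.62 in the wild type pool. Its difference of 0.01 turned to -0.01 with differences centred on the median of all genes, and its 3 probe sets ranged from 0.01 to 0.07.

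Complex IV, cytochrome c oxidase, had the widest range of differences. Its highest gene was the ubiquitous isoform Cox6a1, and the muscle isoforms Cox6a2 and Cox7a1 were its lowest after Cox6b1 (-0.45), which is not of these pairs. Cox6a2, the muscle form of subunit 6A, read 8.96 in the labelled knockout pool and 9.38 in the wild type pool, a 1.33-fold lower level. Cox6a1, its ubiquitous counterpart, read 7.30 in the labelled knockout pool and 6.95 in the wild type pool, a 1.28-fold higher level. The pair thus differed in opposite directions, and Cox6a1 was the single subunit gene past 1.2-fold on the higher side. Cox7a1, the muscle form of subunit 7A, read 9.42 in the labelled knockout pool and 9.82 in the wild type pool, a 1.32-fold lower level. Cox7a2, the ubiquitous form, read 7.92 in the labelled knockout pool and 7.93 in the wild type pool, a difference of -0.01. Cox8b, the muscle form of subunit 8, read 9.55 in the labelled knockout pool and 9.72 in the wild type pool, a difference of -0.17. Cox8a, its ubiquitous form, read 7.81 in the labelled knockout pool and 7.70 in the wild type pool, a difference of 0.11.

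In each of the 3 pairs the muscle isoform had the lower difference. The gap, muscle minus ubiquitous, was -0.77 for Cox6a2 and Cox6a1, -0.39 for Cox7a1 and Cox7a2 and -0.29 for Cox8b and Cox8a, so that the ratio of muscle to ubiquitous isoform was lower by 1.71-fold, 1.31-fold and 1.22-fold in the labelled knockout pool. The order held with the trend on expression level removed, with gaps of -0.73, -0.35 and -0.24. Each of these 6 genes had a single probe set, and a gap shows unequal differences without telling what either gene did in absolute amount. Of all measurable genes, 6.04% had a difference as low as that of Cox6a2, 6.48% as low as Cox7a1 and 22.8% as low as Cox8b, and 14.6% had one as high as Cox6a1. A further isoform, Cox4i2, which lung expresses, was near the floor at 4.75 in the labelled knockout pool and 4.79 in the wild type pool (-0.03, or 0.02 with the trend removed). Its gap to the ubiquitous Cox4i1 went the other way, at 0.13, though Cox4i2 is not a muscle isoform.

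**Figure D2:**
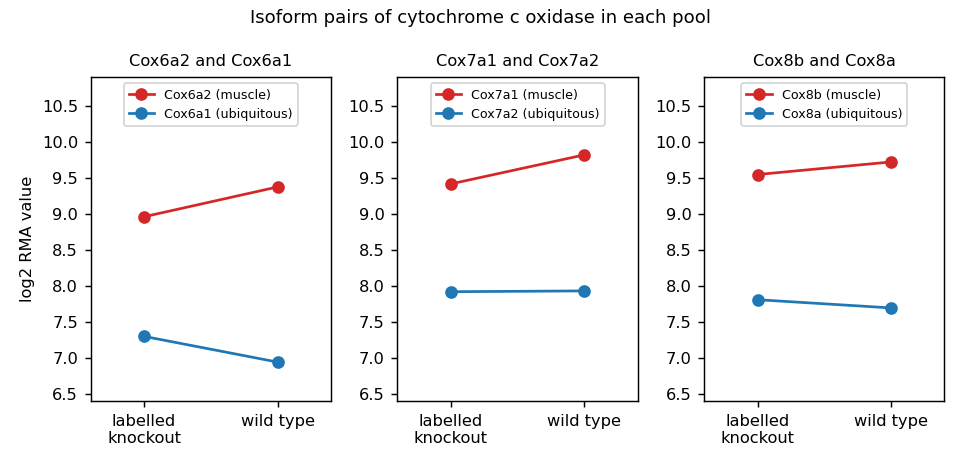
Log2 values in the labelled knockout pool (left) and the wild type pool (right) for the 3 isoform pairs of complex IV, 1 array each, with muscle isoforms in red and ubiquitous isoforms in blue. Heights of different genes come from different probe sets and cannot be compared, so only the slopes can be read: Cox6a2 lies at 8.96 and 9.38 in this order of pools, and Cox6a1 at 7.30 and 6.95.

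Promoters of 5 of the 6 isoform genes, all but Cox6a2, are shown because these pairs carry the contrast between muscle and ubiquitous forms. RefSeq promoters of build GRCm38.p6 were matched by gene ID for 67 of the 83 genes (72 promoters), and the 250 bases before each start were searched on both strands. The sequences run 5′ to 3′ on the gene's strand, and capitals mark matches to the E-box CANNTG (bound by myogenic factors of the MyoD family), the GABP core CGGAAG, the NRF1 core (GCGC, any 2 bases, GCGC), the ERR element TCAAGGTCA or the MEF2 site. The windows are chr5:115348959-115349208 (minus strand) for Cox6a1, chr7:30183921-30184170 (plus) for Cox7a1, chr9:79759854-79760103 (minus) for Cox7a2, chr7:140900447-140900696 (minus) for Cox8b and chr19:7217617-7217866 (minus) for Cox8a.
Cox6a1: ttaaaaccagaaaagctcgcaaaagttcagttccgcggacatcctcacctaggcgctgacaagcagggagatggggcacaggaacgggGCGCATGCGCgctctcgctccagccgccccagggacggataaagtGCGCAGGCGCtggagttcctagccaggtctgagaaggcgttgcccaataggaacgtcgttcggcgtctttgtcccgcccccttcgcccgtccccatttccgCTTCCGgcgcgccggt
Cox7a1: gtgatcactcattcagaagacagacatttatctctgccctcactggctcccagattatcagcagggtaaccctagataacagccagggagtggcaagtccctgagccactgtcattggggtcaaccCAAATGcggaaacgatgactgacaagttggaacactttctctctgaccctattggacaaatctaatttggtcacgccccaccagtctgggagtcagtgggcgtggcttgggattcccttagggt
Cox7a2: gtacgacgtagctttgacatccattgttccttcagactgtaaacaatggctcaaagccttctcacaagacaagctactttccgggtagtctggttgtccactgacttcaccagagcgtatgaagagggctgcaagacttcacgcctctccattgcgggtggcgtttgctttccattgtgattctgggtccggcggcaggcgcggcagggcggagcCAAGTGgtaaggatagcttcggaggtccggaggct
Cox8b: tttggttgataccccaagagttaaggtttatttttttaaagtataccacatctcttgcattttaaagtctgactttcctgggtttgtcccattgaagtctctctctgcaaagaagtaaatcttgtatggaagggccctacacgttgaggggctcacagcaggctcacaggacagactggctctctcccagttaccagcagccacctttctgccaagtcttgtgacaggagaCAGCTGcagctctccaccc
Cox8a: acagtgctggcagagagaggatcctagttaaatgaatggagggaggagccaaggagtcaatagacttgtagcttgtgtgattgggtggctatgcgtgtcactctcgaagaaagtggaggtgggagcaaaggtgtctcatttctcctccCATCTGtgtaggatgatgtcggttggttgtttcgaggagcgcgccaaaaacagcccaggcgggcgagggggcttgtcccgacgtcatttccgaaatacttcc

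The Cox6a1 window held 2 matches to the NRF1 core and 1 to the GABP core, the last on the opposite strand. NRF1 and GABP are known regulators of widely expressed respiratory genes. Those of Cox7a1, Cox7a2, Cox8b and Cox8a each held 1 E-box match and no other. Over the 72 subunit promoters, 31.9% held the GABP core and 20.8% the NRF1 core, against 13.6% and 4.98% of all 32851 promoters. The GABP core was found in 10 of 18 complex V promoters and 7 of 34 complex I promoters. The E-box was found in 59.7% of subunit promoters and 66.2% of all promoters, and the ERR element in 1 of 72 and 0.387% of all. The MEF2 site, searched as YTAWWWWTAR (Y is C or T, W is A or T, R is A or G), was found in 0 of 72 and 2.92% of all. Matches this rare are few in any 72 promoters, so the 0 says little, and Cox6a2 had no promoter to search. A match is a run of letters and not a binding site, and no binding was measured.

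Most other complex IV genes were lower by small amounts. Cox6b1, a subunit on the intermembrane face, read 8.54 in the labelled knockout pool and 8.98 in the wild type pool, the lowest difference of the complex at -0.45. The genes Cox4i1 (-0.17), Cox5a (-0.13), Cox5b (-0.17), Cox6c (-0.21) and Cox7b (-0.13) lay within 1.2-fold, all lower on the probe set used. Cox6c, the lowest of these 5, read 10.39 in the labelled knockout pool and 10.59 in the wild type pool. The other probe set of Cox7b was higher, at 0.06. Cox7a2l, which encodes a factor that joins complexes III and IV, read 7.47 in the labelled knockout pool and 7.63 in the wild type pool (-0.17), and its other probe set differed by -0.42.

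**Figure D3:**
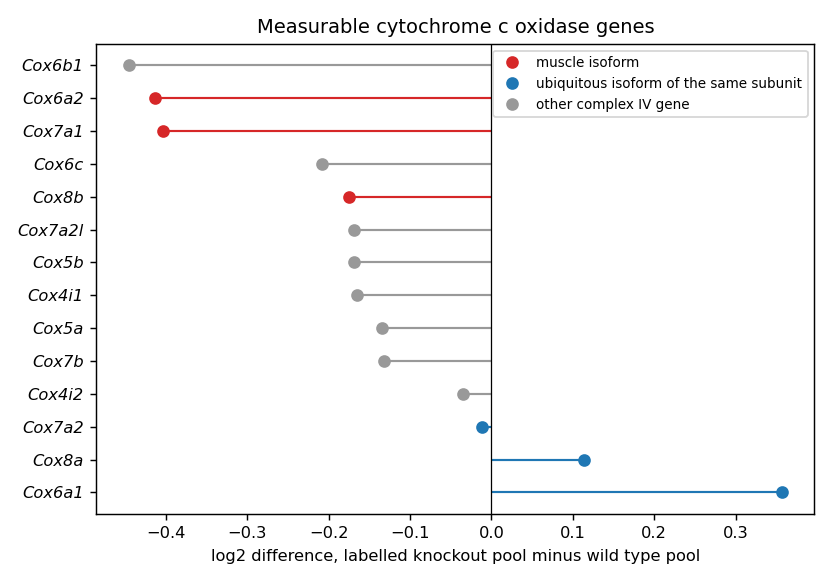
Log2 difference, labelled knockout pool minus wild type pool, of the 14 measurable complex IV genes (y axis), with muscle isoforms in red, the ubiquitous isoforms of the same subunits in blue and the others in grey. Cox6b1 (-0.45), Cox6a2 (-0.41) and Cox7a1 (-0.40) are lowest, and Cox8a (0.11) and Cox6a1 (0.36) are the genes above 0.

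All 17 measured genes of complex V, the ATP synthase, were lower. Atp5k, which encodes the small membrane subunit e, read 7.90 in the labelled knockout pool and 8.36 in the wild type pool, a 1.38-fold lower level. Atp5g1 read 9.01 in the labelled knockout pool and 9.40 in the wild type pool, a difference of -0.39. Atp5g1, Atp5g2 (-0.25) and Atp5g3 (-0.27) encode the same mature c subunit of the rotor ring with different import signals, and all 3 were lower. Atp5e, the epsilon subunit, read 7.72 in the labelled knockout pool and 8.03 in the wild type pool (-0.30), and Atp5j2, the f subunit, 9.78 and 10.08 in the same order (-0.30).

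The smallest differences of complex V included that of its catalytic subunit. Atp5pb, the b subunit of the peripheral stalk, read 10.15 in the labelled knockout pool and 10.18 in the wild type pool (-0.03). Atp5b, the catalytic beta subunit, read 11.67 in the labelled knockout pool and 11.71 in the wild type pool (-0.04). Atp5a1, the alpha subunit, differed by -0.13 and Atp5c1, the gamma subunit of the shaft, by -0.17. The 5 genes of the F1 part had a median of -0.17 with 1 (20%) past 1.2-fold (Atp5e). The 12 genes of the membrane and stalk part had a median of -0.25 with 5 (41.7%) past 1.2-fold. Of all measurable genes, 14.2% were at least 1.2-fold lower. Across the 80 genes of all complexes the difference was only weakly related to the mean level (Pearson r = -0.16, Spearman rho = -0.10, over genes of the same arrays).

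Several subunit genes had more than 1 probe set, which gives a view of the agreement between measurements of 1 gene on the same arrays. Of 17 such genes, 15 had all probe sets lower, Uqcrb had all 3 higher, and Cox7b alone had probe sets of opposite sign (-0.13 and 0.06). The widest gaps were those of Cox7a2l (-0.42 to -0.17), Atp5l, the g subunit of complex V, whose 6 probe sets ran from -0.29 to -0.05, and Ndufb11 of complex I (-0.31 to -0.10). Uqcr11 had a second probe set at -0.60, past 1.5-fold on the lower side, which was not the one used. Probe sets annotated to several symbols were left out, and among them those of Ndufb4 with Ndufb4b differed by -0.30, those of Cox7c with Gm12338 by -0.11 to -0.08, and 1 of Ndufs5 with Ndufs5-ps by -0.26. Many of these genes have near-identical copies, and the files do not say at which copy a probe set lies, so small differences between probe sets are uncertain.

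**Figure D4:**
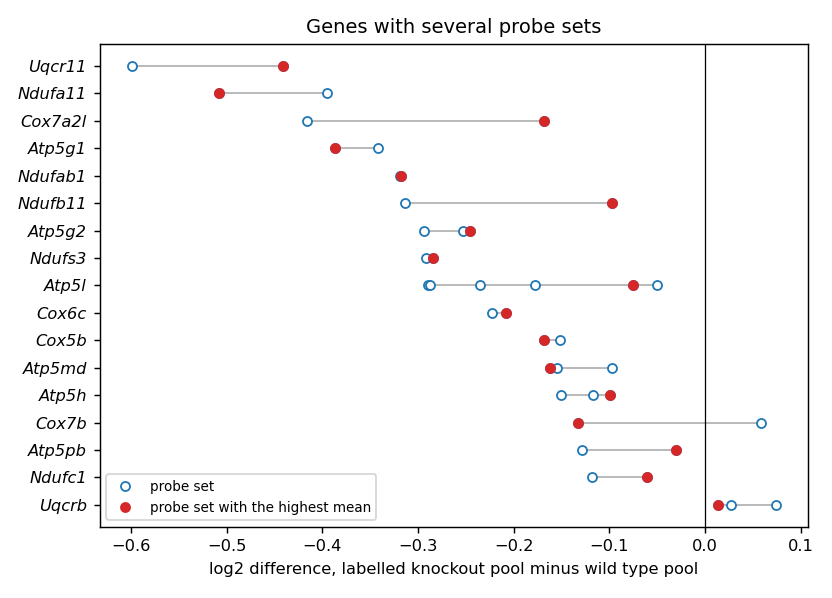
Log2 difference, labelled knockout pool minus wild type pool, of every probe set of the 17 subunit genes with more than 1 (y axis), with the probe set used in red. Apart from the 3 probe sets of Uqcrb (0.01 to 0.07) and 1 of Cox7b (0.06), all lie below 0.

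The other genes that build and supply the chain were less uniform. Of 38 measurable assembly factors, which insert subunits and cofactors, 29 (76.3%) were lower, against 44.5% of all measurable genes. Past 1.2-fold, 5 (13.2%) were lower, close to the 14.2% of all measurable genes, and 1 was higher. The largest differences were those of Ndufaf4, a complex I assembly factor (6.02 in the labelled knockout pool and 6.61 in the wild type pool, -0.59), and Coa7, a complex IV assembly factor (5.19 and 5.70, -0.51). Genes of electron carriers and coenzyme Q synthesis were lower in 12 of 16 (75%), with a median of -0.21. Of the 16, 6 (37.5%) were lower past 1.2-fold. Coq10a, a coenzyme Q binding protein, was 1.57-fold lower (8.24 in the labelled knockout pool and 8.89 in the wild type pool), and Coq9, needed for coenzyme Q synthesis, 1.42-fold lower (8.98 and 9.49).

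Regulators of mitochondrial transcription and biogenesis had a median of -0.06, and 3 of 19 passed 1.2-fold, all lower, a share (15.8%) near that of all genes. The pair with the largest differences was Esrra, which encodes the nuclear receptor ERR alpha, at 6.09 in the labelled knockout pool and 6.70 in the wild type pool (1.53-fold lower), and Ppargc1a, which encodes its coactivator PGC-1 alpha, at 5.63 in the labelled knockout pool and 6.14 in the wild type pool (1.42-fold lower). The mitochondrially encoded subunits could be read for COX2 of complex IV and ND3 of complex I alone. COX2 read 11.56 in the labelled knockout pool and 11.50 in the wild type pool, and ND3 11.00 and 10.99 in the same order, differences of 0.06 and 0.01. A second probe set of COX2 differed by 0.07 and one of ND3 by -0.06. The differences of ND3 thus lay on either side of 0, and those of COX2 above it. A probe set shared by ND6 of complex I and Acsm2 differed by -0.11.

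Cell type markers also differed between the pools, and in such samples the number of cells of a type and the RNA per cell cannot be told apart. The 25 macrophage and monocyte markers were all higher in the labelled knockout pool, with a median difference of 1.06 and a mean level of 8.33 in the labelled knockout pool and 7.21 in the wild type pool, none of them below the floor. Genes of the fast fibre list were lower in 18 of 18, with a median of -0.19, close to the -0.23 of the subunit genes. Myh2, the type IIA myosin, differed by -0.62 and Acta1, the skeletal actin, by -0.04. The list also holds genes that slow fibres express, such as Acta1, Ckm and Ryr1, so it is not particular to fast fibres. Slow fibre genes were lower in 4 of 7, with a median of -0.05, Myl2 and Myl3 being below the floor in both pools. Fibroblast genes were higher in 9 of 10 (median 0.16). Endothelial genes were higher in 4 of 9 and lower in 4 (median 0.00, range -0.29 to 0.84). For comparison with these counts, 44.5% of all measurable genes were lower and 53.3% higher. Brown fat also uses Cox7a1 and Cox8b. Of its 7 listed genes, Ucp1, Cidea and Elovl3 were below the floor in both pools, and the 4 others, Fabp4, Plin1 and Adipoq, which all fat cells express, and Dio2, were measurable. Fabp4 read 9.07 in the labelled knockout pool and 9.08 in the wild type pool, Plin1 7.37 and 7.41, Adipoq 7.18 and 7.08, and Dio2 5.74 and 6.13 in the same order. The part of these cell types in the differences of the subunit genes, and in the split between muscle and ubiquitous isoforms, was not tested.

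**Figure D5:**
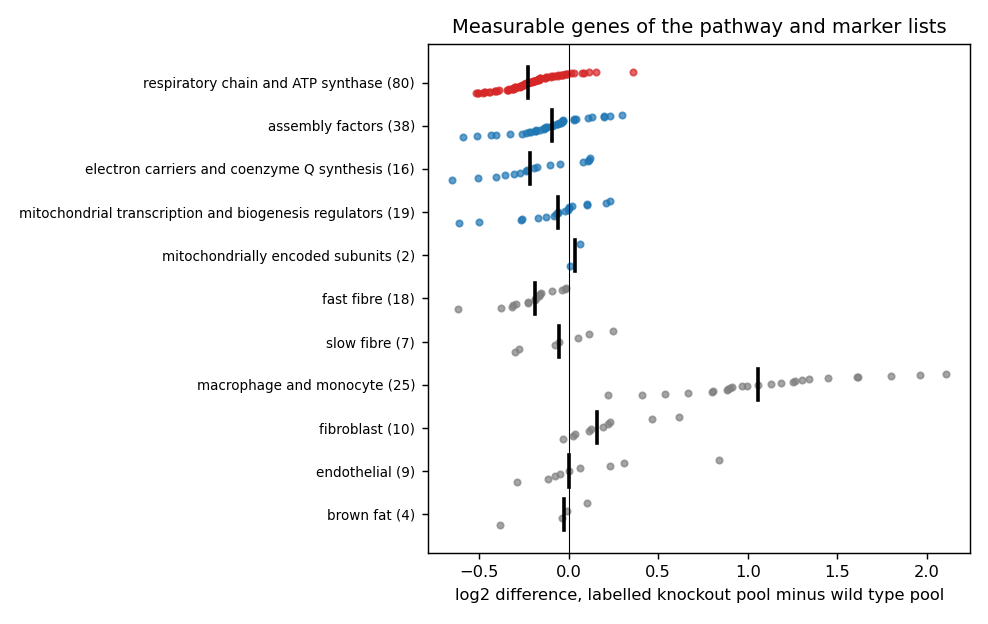
Log2 difference, labelled knockout pool minus wild type pool, of the measurable genes of each list (number in brackets), with subunit genes in red, other pathway lists in blue and cell type markers in grey. Black bars are medians, which run from -0.23 for the subunit genes to 1.06 for the macrophage and monocyte markers.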

How the data were processed

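RNA of 5 muscles was pooled per genotype and hybridised to 1 array per pool, per the labels' protocols. The deposited values are log2 expression values per probe set, made by the authors using Affymetrix Expression Console (RMA), as named in the submitters' processing notes. RMA subtracts background, equalises the distributions of the arrays and summarises probes, so a change shared by most genes cannot be seen. Versions: not given in the sources used. After sorting, the arrays differed by at most 0.139, and 254 measurable genes (2.15%) read the same in both pools. The number of arrays limits the precision.

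Probe sets were named from the platform annotation (21789 with 1 symbol, 1621 with several, 12147 with none). The symbols of all 83 subunit genes matched the RefSeq table of GRCm38.p6 by gene ID. Python 3.11.15, numpy 2.4.6 and pandas 2.3.3 gave the differences, with no test. On simulated data, the recovery of median planted differences was checked without scaling, with centring and with loess, and no count was checked. Each member could be named, with values in both pools for isoform pairs, complexes II and III, and the 4 lowest and 2 highest of complexes I, IV and V, and, of each other pathway list, the 2 measurable genes that differed most. Further members and marker genes were chosen after their values were seen. The members and lists were chosen with earlier results of these data known. Alternatives were median centring, averaging all probe sets of a gene, removing a loess trend on expression (span 0.3, statsmodels 0.14.6), other floors and fold limits, structural subunits only, and Ndufa4 in complex IV.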

Additional observations from a re-analysis of the deposited data

How the results depend on the processing

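The count of subunit genes lower in the labelled knockout pool, the count past 1.2-fold, the medians of the 5 complexes and the 3 isoform gaps kept their direction under median centring, removal of the loess trend, the mean of all probe sets, no floor, a higher floor of 6.18 (the 75th percentile) and structural subunits alone. Medians and gaps moved by at most 0.1 and counts by less than 1.5 times. The count past 1.2-fold follows its limit: of 80 genes 57 passed 1.1-fold (26.9% of all measurable genes did) and 12 passed 1.3-fold (7.33% of all measurable genes), against 30 at 1.2-fold. Of the single genes, Uqcrb turned to -0.0128 with median centring, and without the loess trend Cox4i2 turned to 0.0158 and Ndufv3 to -0.0267. Averaged over their probe sets, Atp5l moved to -0.19, Cox7a2l to -0.29 and Ndufb11 to -0.21. No paired analysis was possible because each genotype has 1 array, and for the same reason no replicate could be left out.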
